A study of Oryza sativa with 10 samples.

Results

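The difference between 2 rice lines in the response of their roots to NaCl was measured gene by gene in all 10 libraries. S13, labelled salt tolerant, was set against S3, labelled salt susceptible. For each gene the salt response of a line is its level at 140 mM NaCl over its level at 0 mM, on the log2 scale, where 1 stands for a 2-fold difference. The quantity followed here is the response of S13 minus the response of S3, called the interaction: a positive value means that the gene went up more, or down less, in S13. Of 38978 genes in the files, 29033 had at least 10 counts in total in each line, and 27628 of these also passed the low-count filter of the model and were compared. The 1405 others were too thinly counted within groups to be fitted. A further 1003 genes reached 10 counts in S13 alone, 1043 in S3 alone, and 7899 in neither line, and none of these belongs to the comparison.

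The 4 groups were S13 at 140 mM (n = 3), S13 at 0 mM (n = 2), S3 at 140 mM (n = 3) and S3 at 0 mM (n = 2). All plants were 42 days old: they grew for 30 days under normal conditions and then stood for 12 days in salt or in normal solution. Total RNA was taken from roots. Whether replicates stand for different plants is not stated in the labels; every p-value below is set against the variation among replicate libraries, part or all of which may be technical. Each line is a single genotype, and what else distinguishes the lines is not given in the sources used here.

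Roots are the organ that meets soil salt first. NaCl lowers the water potential around the root and brings in sodium ions, which compete with potassium. Plants answer with abscisic acid signalling, ion pumps and transporters that move sodium out of the cell or into the vacuole, compatible solutes, and changes in root growth and wall structure. Tolerance in rice is known as a trait of many loci that can act through lower sodium uptake, through retention of sodium in the root or through tissue tolerance. A line difference in the transcript response is what an interaction test looks for: a gene that 2 lines regulate alike under salt has an interaction of 0, however large its response.

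The files name nuclear genes by identifier. Only 1 of 38756 nuclear identifiers could be paired with a gene symbol, so the leading nuclear genes are given by identifier, position and level, with no function. Plastid and mitochondrial genes carry their names and are described by role. The label root could not be checked against nuclear root markers. Levels are in CPM, read counts relative to the library size after TMM scaling (trimmed mean of M values), and they compare libraries for 1 gene, not genes of different length. In RNA from whole roots, fewer cells of a type and less RNA per cell cannot be told apart.

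Libraries held 22938524 to 25703942 counts, so that 3 counts correspond to 0.117 to 0.131 CPM before scaling. The second S13 salt library was the least like its group, with a mean correlation of 0.900 with the other libraries of its group, against 0.911 to 0.967 for the other 9 libraries. The share of counts on the plastid genome was 0.278 to 0.457% in salt libraries and 0.156 to 0.189% in control libraries of both lines. Scaling factors also followed salt, at 0.729 to 0.922 in salt libraries and 1.31 to 1.42 in control libraries. The part of either in the results was not tested.

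Salt moved a large part of the transcripts in both lines, and mostly the same way. In S13 roots 7529 genes passed the test for a salt response, 27.3% of those compared, with 3585 higher (13%) and 3944 lower (14.3%) at 140 mM. In S3 roots 9161 passed, 33.2%, with 4024 higher (14.6%) and 5137 lower (18.6%). Both counts rested on the control libraries: S13 had 1489 and 2419 calls when its first or its second was left out, and S3 had 3204 and 5217; without its second salt library S3 had 5919. The 2 responses had a Pearson correlation of 0.761 over the 27628 genes, and of 0.808 over the 18149 genes that reached 5 CPM in at least 1 group; genes within 1 experiment are not independent, and this is a description.

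**Figure D1:**
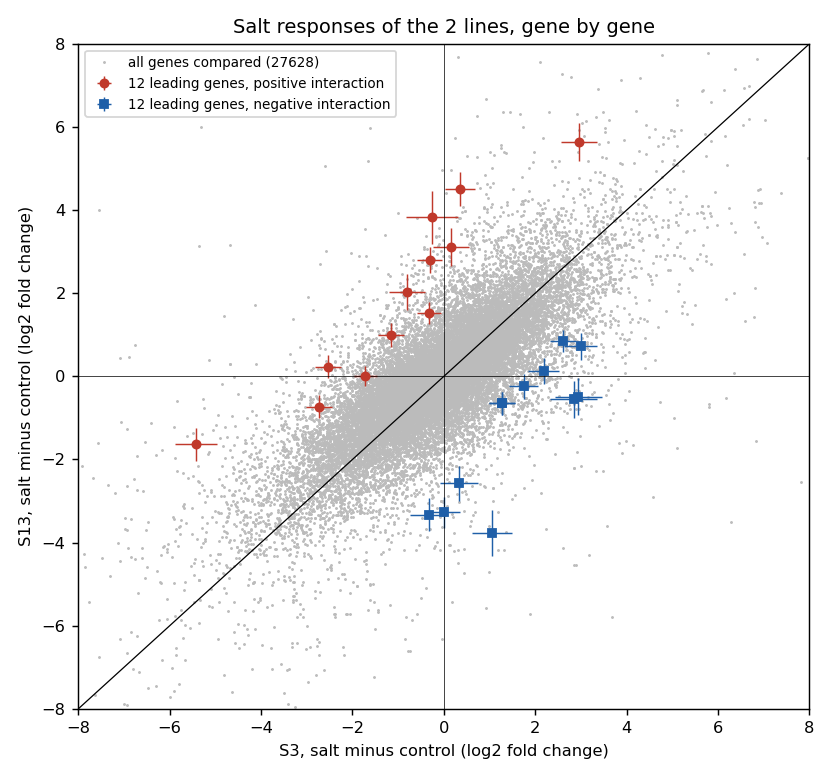
Salt response of each gene in S13 (vertical axis) against S3 (horizontal axis), both as log2 of 140 mM over 0 mM. Grey dots are the 27628 genes compared, of which 42 lie outside the plotted range of 8; red circles and blue squares are the 12 leading genes in each direction with standard errors, and the diagonal marks equal responses. Most genes lie along the diagonal, while the leading genes lie off it, several of them next to one of the axes, where 1 line hardly responded.

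No gene passed the interaction test. With edgeR's quasi-likelihood test and Benjamini-Hochberg adjustment, the number of genes at an adjusted p under 0.05 was 0 of 27628 (0%), and the smallest adjusted p was 0.124. At an unadjusted p under 0.05 there were 2404 genes, 8.7% of those compared, 1423 with a positive interaction (5.15%) and 981 with a negative one (3.55%). That split depended on the processing: it was 1138 positive and 1026 negative with library totals, and turned to 993 positive and 1053 negative without the first S13 salt library. Leaving out the second S13 salt library raised the number of genes to 4758, and leaving out the first control library of S13 or of S3 lowered it to 1307 or 1458. The same count came to 0 with limma-voom, where 2577 genes had an unadjusted p under 0.05, and to 140 with DESeq2, 70 in each direction, where 2784 genes did. The 2 genes nearest to the threshold, both outside it, were Os06g0696500 and Os06g0219500, at adjusted p of 0.124 and 0.132, and none lay inside it.

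The estimates were wide, which bears on how the absence of calls may be read. The median interaction was 0.06, and 6901 genes (25%) had an estimate of at least 1 in size. The 95% interval of a gene's interaction had a median half-width of 1.34, or 1.09 among genes that reached 5 CPM. For 2124 genes (7.69%) the whole interval lay within 1 of zero, and for 14328 (51.9%) within 2, so for most genes the interval reached a 2-fold difference in response. In 278 genes the whole interval lay beyond 1 in size. Standard errors were worked out from the estimate and its test statistic, and can come out too small for estimates near 0. The counts of 2124 and 14328 genes may therefore be too high.

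Genes called in 1 line alone mostly had the same direction in the other. Of the 16136 genes called in neither line, 70% also had the same direction in both. Of the genes called in S13, 2331 were not called in S3, yet 89.4% of these had the same direction in S3, 649 of them had an adjusted p under 0.1 there, and 0 passed the interaction test. Another 3963 genes were called in S3 and not in S13, of which 91% had the same direction in S13 and 1130 an adjusted p under 0.1. In these classes 26% and 23.4% of genes had an unadjusted interaction p under 0.05, against 8.7% of all genes compared; a class that needs a call in 1 line and none in the other selects for that. Among the 2357 genes that rose in both lines, the share was 4.96% and the median interaction -0.03. In the 2837 genes that fell in both, the share was 4.93% and the median interaction 0.14, where a positive value means a smaller fall in S13.

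The leading genes were the 12 with a positive and the 12 with a negative interaction that had the smallest p among genes reaching 5 CPM in their highest group. They stand for 22 loci, since a pair on chromosome 4 and a pair on chromosome 1 each overlap on opposite strands. They were ranked by the interaction itself, so their levels are a description and lend it no support. Positive interactions among them ran from 1.72 to 4.17 at adjusted p of 0.124 to 0.473, and negative ones from 1.75 to 4.82 in size at adjusted p of 0.288 to 0.473. All 24 had at least 1 group whose libraries lay wholly above or below those of the other 3, against 37.8% of all genes compared. A gene with more than 1 such group was counted only under the last of them. The order was S13 at 140 mM, S13 at 0 mM, S3 at 140 mM and S3 at 0 mM. Counts and shares of the earlier groups are therefore minima. S13 at 0 mM was counted in 9 genes, below the rest in 6 (5.7% of all genes compared) and above in 3 (5.72%). S13 at 140 mM was counted in 1, above (1.44%, with 2.05% below). S3 at 140 mM was counted in 8 genes, above in 5 (3.05%) and below in 3 (3.4%). S3 at 0 mM was counted in 6, below in 4 (6.58%) and above in 2 (9.91%). Each of the 24 passed the salt test in at least 1 line: 10 in S13 alone, 10 in S3 alone and 4 in both. Of all 27628 genes compared, 2331 passed in S13 alone, 3963 in S3 alone and 16136 in neither. In both lines 2357 rose, 2837 fell and 4 went opposite ways. Ranking by the interaction favours genes that responded in at least 1 line.

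**Figure D2:**
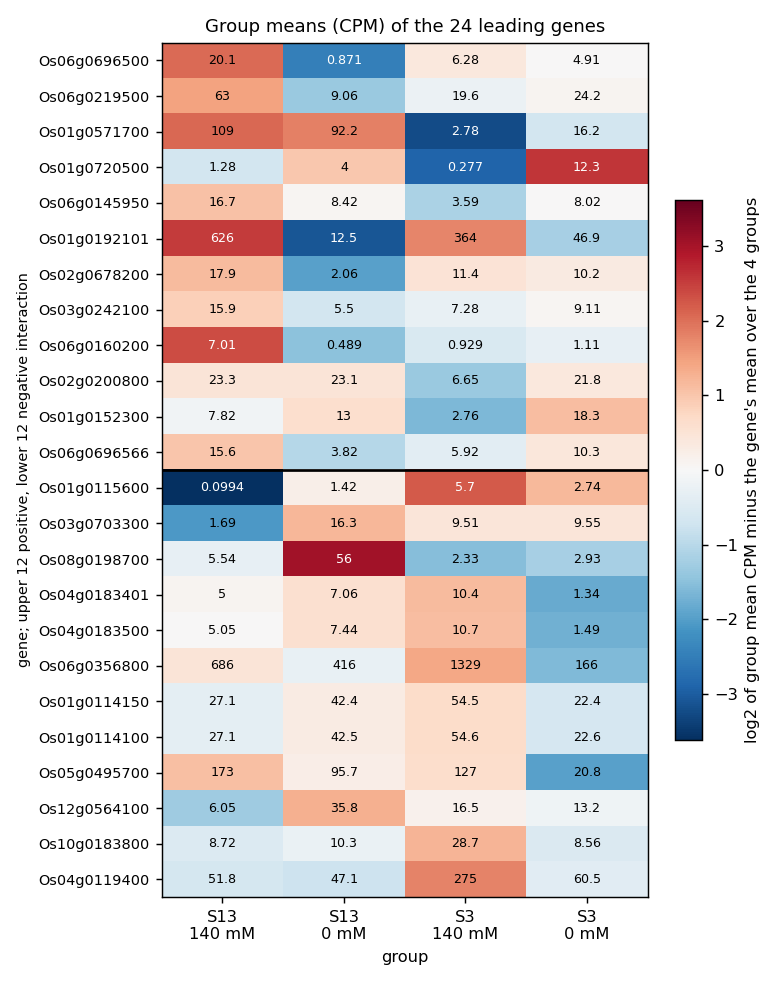
Mean CPM of the 24 leading genes in the 4 groups, printed in the cells; colours give log2 of the group mean relative to the gene's mean over the groups, red above and blue below. Groups run from S13 at 140 mM on the left to S3 at 0 mM on the right, with 3 libraries at 140 mM and 2 at 0 mM in each line. For most genes at least 1 cell stands out, such as S13 at 0 mM with 0.871 for Os06g0696500 or S3 at 140 mM with 275 for Os04g0119400.

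Among the positive genes, 6 responded by at least 1 on the log2 scale in S13 alone. With a positive interaction such a response can only be a rise. Os06g0696500 (chromosome 6, 29137112 to 29138074, plus strand) had 18.95, 20.2 and 21.1 CPM in the S13 salt libraries, 0.550 and 1.19 CPM in the S13 control libraries, 5.12, 6.94 and 6.77 CPM in the S3 salt libraries, and 4.43 and 5.40 CPM in the S3 control libraries. The S13 control libraries lay below all others and the S13 salt libraries above all others, while the groups of S3 overlapped. Its response was 4.52 ± 0.41 in S13 (SE; adjusted p 0.000479) and 0.35 ± 0.33 in S3 (adjusted p 0.435), and its interaction was 4.17 ± 0.49, with a 95% interval of 3.08 to 5.25. S13 was higher than S3 under salt, by 1.68 (adjusted p 0.0108), and lower without it, at a log2 difference of -2.49 (adjusted p 0.00753).

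Os06g0219500 (chromosome 6, 6152338 to 6153502, minus strand) followed a like course. It had 67.6, 60.5 and 61.0 CPM in S13 salt and 6.72 and 11.4 CPM in S13 control libraries, against 21.4, 17.1 and 20.3 CPM in S3 salt and 27.8 and 20.6 CPM in S3 control libraries. No S13 library overlapped S3, on either side, and the groups of S3 overlapped each other. It rose in S13 by 2.80 ± 0.31 (adjusted p 0.000919) and gave -0.31 ± 0.27 in S3 (adjusted p 0.410), an interaction of 3.10 ± 0.40 with a 95% interval of 2.22 to 3.98.

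The other 4 of these genes were Os02g0678200, Os03g0242100, Os06g0160200 and Os06g0696566. Os02g0678200 averaged 17.9 ± 5.5 CPM in S13 salt and 2.06 ± 0.76 CPM in S13 control, against 11.4 ± 2.9 CPM in S3 salt and 10.2 ± 4.3 CPM in S3 control (SD, n = 3 and 2). Os03g0242100 averaged 15.9 ± 0.93 and 5.50 ± 0.17 CPM in S13 salt and control, against 7.28 ± 1.17 and 9.11 ± 0.88 CPM in S3 salt and control. Os06g0160200 reached 5.804, 11.3 and 3.89 CPM in the S13 salt libraries and 0.367 to 1.47 CPM in the other 7. Its S13 control libraries held 32 counts in all, and 9.04% of its exon bases are shared with Os06g0160100 on the other strand. Os06g0696566 lies on the same strand as Os06g0696500 with 911 bases between them, and the genes may not be separate observations; it averaged 15.6 ± 1.4 and 3.82 ± 2.77 CPM in S13 salt and control, against 5.92 ± 0.83 and 10.3 ± 1.0 CPM in S3 salt and control. In 5 of the 6 genes, all but Os06g0696566, the S13 control libraries lay below those of the other 3 groups. For Os06g0160200 the gap was narrow, from 0.611 CPM in the second S13 control library to 0.657 CPM in the first S3 salt library.

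**Figure D3:**
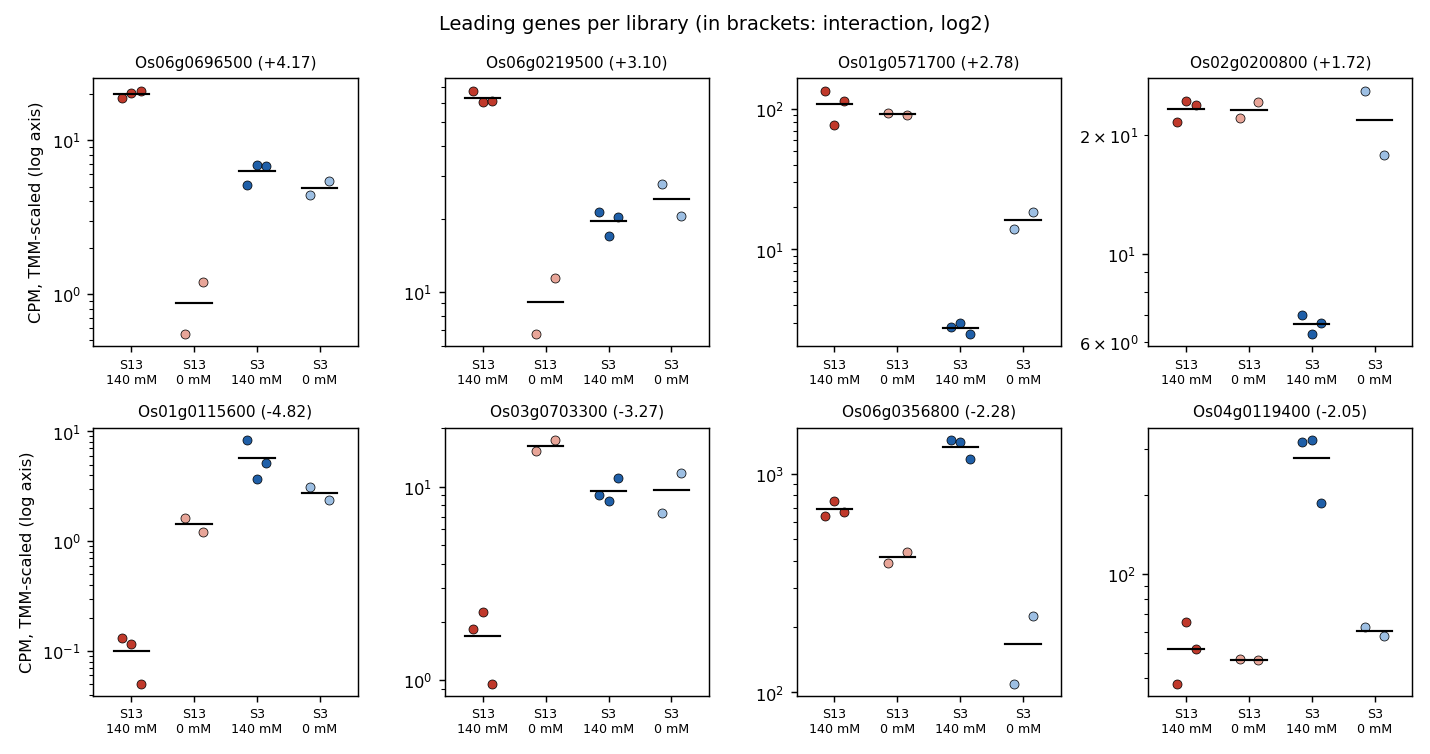
CPM of 8 leading genes in each library on log axes, 4 with a positive interaction above and 4 with a negative one below; points are libraries, bars are group means, red is S13 and blue is S3, dark is 140 mM and light is 0 mM. In Os06g0696500 the 3 S13 salt libraries sit between 18.95 and 21.1, against 0.550 and 1.19 in S13 control libraries, whereas in Os02g0200800 the 3 S3 salt libraries sit alone at 6.28 to 6.996.

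In 4 positive genes the response reached 1 in size in S3 alone, which with a positive interaction can only be a fall. Os01g0571700 (chromosome 1, 21956101 to 21963333, plus strand) had 135, 76.4 and 115 CPM in the S13 salt libraries and 93.3 and 91.0 CPM in the S13 control libraries. Its S3 salt libraries had 2.82, 3.00 and 2.51 CPM and its S3 control libraries 14.0 and 18.4 CPM. S3 lay below S13 under both conditions, and its libraries did not overlap between conditions, whereas the S13 groups overlapped. The response in S3 was -2.54 ± 0.28 (adjusted p 0.000720), while S13 gave 0.24 ± 0.27 (adjusted p 0.540). The line difference at 0 mM, 2.51 (adjusted p 0.00182), and the interaction of 2.78 ± 0.40 add up to the line difference of 5.29 at 140 mM (adjusted p 3.58e-05).

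Os02g0200800 (chromosome 2, 5623379 to 5627209, plus strand) started level in the lines. It had 21.5, 24.4 and 23.9 CPM in S13 salt and 22.03 and 24.2 CPM in S13 control libraries, against 6.996, 6.28 and 6.67 CPM in S3 salt and 25.9 and 17.8 CPM in S3 control libraries. The other 3 groups overlapped and the S3 salt libraries alone were low. The response was -1.71 ± 0.24 in S3 (adjusted p 0.00141) and 0.01 ± 0.24 in S13, and the interaction was 1.72 ± 0.35. Os01g0152300 averaged 7.82 ± 1.36 and 12.96 ± 1.8 CPM in S13 salt and control, against 2.76 ± 0.42 and 18.3 ± 3.3 CPM in S3 salt and control, so both lines had lower means under salt, but only the fall in S3 passed the test (adjusted p 0.0757 in S13 and 0.000608 in S3); the interaction of 2.00 ± 0.41 did not.

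Os06g0145950 (chromosome 6, 2407656 to 2409373, minus strand) was the leading gene with responses called in both lines and of opposite sign. It rose in S13, by 0.99 ± 0.29 (adjusted p 0.0286), and fell in S3, with a response of -1.16 ± 0.28 (adjusted p 0.0113). The S13 salt libraries had 15.1, 17.5 and 17.6 CPM and the S13 control libraries 8.74 and 8.10 CPM, against 2.86, 4.67 and 3.24 CPM in S3 salt and 8.25 and 7.80 CPM in S3 control libraries. The control libraries of the lines overlapped, the S13 salt libraries lay above them and the S3 salt libraries below. It shares 17.3% of its exon bases with Os06g0145800 on the other strand.

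The last 2 positive genes responded by at least 1 in both lines. Os01g0192101 rose in both, to 626 ± 175 CPM in S13 salt against 12.5 ± 1.6 CPM in S13 control, and to 364 ± 148 CPM in S3 salt against 46.9 ± 1.4 CPM in S3 control. The salt groups overlapped and the lines differed at 0 mM (log2 difference -1.91, adjusted p 0.0421), and the interaction was 2.69 ± 0.51; 76.8% of its exon bases are shared with Os01g0192000 on the other strand. Os01g0720500 fell in both, to 1.28 ± 0.15 CPM in S13 salt against 4.004 ± 0.82 CPM in S13 control, and to 0.277 ± 0.168 CPM in S3 salt against 12.3 ± 1.7 CPM in S3 control. The responses were -1.64 ± 0.39 in S13 (adjusted p 0.0137) and -5.43 ± 0.46 in S3 (adjusted p 0.000480), and the interaction was 3.79 ± 0.61. The S3 salt libraries held 17 counts of this gene in all, so the S3 response and the interaction rest on few reads.

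Among the negative genes, Os01g0115600 (chromosome 1, 843530 to 847399, plus strand) had the widest difference, -4.82 ± 0.73 with a 95% interval of -6.43 to -3.21. Its S13 salt libraries had 0.132, 0.116 and 0.0505 CPM and its S13 control libraries 1.62 and 1.22 CPM, against 8.31, 3.67 and 5.12 CPM in S3 salt and 3.12 and 2.37 CPM in S3 control libraries. The groups did not overlap. The S13 salt libraries held 6 counts in all, so the response there, -3.76 ± 0.56 (adjusted p 0.00213), rests on few reads. S3 gave 1.06 ± 0.44, which did not pass (adjusted p 0.0895).

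A further 3 negative genes responded by at least 1 in S13 alone, which with a negative interaction can only be a fall. Os03g0703300 (chromosome 3, 28260587 to 28266450, minus strand) had 1.85, 2.26 and 0.960 CPM in S13 salt and 15.3 and 17.3 CPM in S13 control libraries, against 9.02, 8.39 and 11.1 CPM in S3 salt and 7.33 and 11.8 CPM in S3 control libraries. Both groups of S3 overlapped and lay between those of S13. The response was -3.27 ± 0.38 in S13 (adjusted p 0.00102) and -0.01 ± 0.36 in S3, and the interaction was -3.27 ± 0.53.

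Os08g0198700 was set apart by S13 at 0 mM. It averaged 5.54 ± 2.38 CPM in S13 salt and 55.95 ± 0.27 CPM in S13 control, against 2.33 ± 0.43 CPM in S3 salt and 2.93 ± 1.42 CPM in S3 control. S13 was higher than S3 at 0 mM by 4.25 (adjusted p 0.00120), and the difference at 140 mM, 1.25, did not pass (adjusted p 0.110). Os12g0564100 likewise averaged 6.05 ± 3.08 and 35.8 ± 0.7 CPM in S13 salt and control, against 16.5 ± 5.3 and 13.2 ± 1.5 CPM in S3 salt and control.

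The remaining 8 negative genes, at 6 loci, responded by at least 1 in S3 alone. With a negative interaction this can only be a rise. Os06g0356800 (chromosome 6, 14646987 to 14648089, minus strand) had 643, 749 and 666 CPM in S13 salt and 391.6 and 440 CPM in S13 control libraries, against 1420, 1398 and 1170 CPM in S3 salt and 110 and 223 CPM in S3 control libraries. No groups overlapped, and the S3 groups lay outside those of S13 at both ends. S3 rose by 3.00 ± 0.36 (adjusted p 0.000802), S13 gave 0.72 ± 0.32 (adjusted p 0.118), and the interaction was -2.28 ± 0.45.

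Os04g0119400 (chromosome 4, 1136017 to 1139638, plus strand) was high in 1 group. It had 38.2, 65.5 and 51.8 CPM in S13 salt and 47.3 and 46.95 CPM in S13 control libraries, against 319, 322 and 185 CPM in S3 salt and 62.8 and 58.1 CPM in S3 control libraries. All 3 S3 salt libraries lay above every other library, which overlapped between the lines. Its rise in S3 was 2.19 ± 0.34 (adjusted p 0.00178), its response in S13 0.14 ± 0.31 and its interaction -2.05 ± 0.44. Os10g0183800 was also highest in S3 salt, with 8.72 ± 0.56 and 10.3 ± 2.8 CPM in S13 salt and control, against 28.7 ± 7.2 and 8.56 ± 1.14 CPM in S3 salt and control.

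Os05g0495700 was the gene of this class that passed the salt test in both lines. It rose to 173 ± 14 CPM in S13 salt against 95.7 ± 2.2 CPM in S13 control, and to 127 ± 28 CPM in S3 salt against 20.8 ± 3.0 CPM in S3 control. The lines differed at 0 mM by 2.20 (adjusted p 0.00237) and by 0.44 at 140 mM (adjusted p 0.377).

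Both overlapping pairs belong to this class, and in each the counts of the partners were nearly equal in every library. Os04g0183401 and Os04g0183500 share 96.8% of the exon bases of the one and 84.6% of the other; Os04g0183500 averaged 5.05 ± 2.53 and 7.44 ± 0.80 CPM in S13 salt and control, against 10.7 ± 2.9 and 1.49 ± 0.18 CPM in S3 salt and control. Os01g0114150 and Os01g0114100 likewise share 89.9% and 86.3%; Os01g0114100 averaged 27.1 ± 7.1 and 42.5 ± 1.6 CPM in S13 salt and control, against 54.6 ± 5.4 and 22.6 ± 6.1 CPM in S3 salt and control. Whether 1 or both genes of a pair are transcribed cannot be told apart from these counts.

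The lines were also compared within each condition. Between S13 and S3 at 140 mM 711 genes passed (2.57%), 335 higher in S13 (1.21%) and 376 lower (1.36%). At 0 mM 152 passed (0.55%), 64 higher (0.232%) and 88 lower (0.319%), while the interaction, which tests that change itself, passed for none; the groups at 140 mM also hold 3 libraries each against 2. Of the 24 leading genes, 13 differed between the lines at 140 mM and 6 at 0 mM.

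Calls of opposite sign in the 2 lines were made for 4 genes, which were picked out after their values were seen. Beside Os06g0145950 they were Os04g0616300, Os04g0626500 and Os11g0555300, all lower under salt in S13 and higher in S3. Os04g0616300 averaged 2.32 ± 0.80 and 5.84 ± 0.69 CPM in S13 salt and control, against 23.7 ± 9.2 and 10.5 ± 1.5 CPM in S3 salt and control. Os04g0626500 averaged 5.06 ± 0.23 and 10.2 ± 1.8 CPM in S13 salt and control, against 28.6 ± 8.7 and 13.6 ± 4.6 CPM in S3 salt and control. Their interactions were -2.51 ± 0.55 and -2.09 ± 0.46, both at an adjusted p of 0.473. Os11g0555300 was thinly counted, with 3 and 41 counts over the S13 salt and control libraries and 23 and 0 over those of S3.

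Grouping all 27628 genes by the size of their 2 responses put the leading genes in context. In S13 alone a response of at least 1 was found in 3287 genes (11.9%), and in S3 alone in 4332 (15.7%). Both lines responded that far in the same direction, with the larger response in S13, in 3434 genes (12.4%), and with the larger in S3 in 4438 (16.1%). Opposite responses of that size were found in 214 genes (0.775%), and both were smaller in 11923 (43.2%).

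The genes that carry names are those of the organelles. Plastids and mitochondria keep small genomes of their own: plastid genes encode parts of the photosystems, the ATP synthase, the NADH dehydrogenase-like complex, ribosomal proteins and a bacterial-type RNA polymerase, and roots hold them in non-green plastids. Of 59 named plastid genes 58 were compared. Under salt 31 rose and 3 fell in S13, where 13% of all genes compared rose and 14.3% fell. In S3 35 rose and 2 fell, where 14.6% of all genes rose and 18.6% fell. None passed the interaction test or had an unadjusted interaction p under 0.05, against 8.7% of all genes. Their median response was 1.69 in S13 and 2.00 in S3. Their interactions had a median of -0.05, against 0.06 over all genes compared, and ran from -1.88 to 1.40. The lower end was that of petB, whose gene model covers 6 exon bases. For the plastid genes the median half-width of the intervals was 1.68, and no interval lay within 1 of zero.

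**Figure D4:**
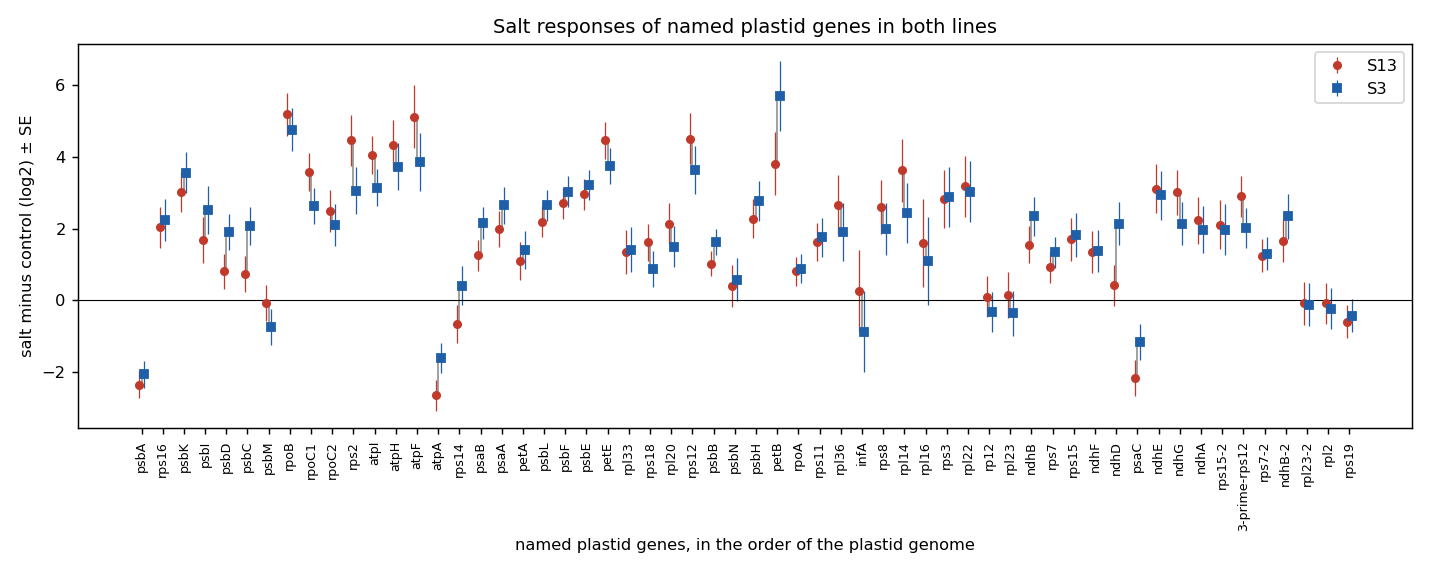
Salt response (log2 of 140 mM over 0 mM, with standard errors) of the 58 named plastid genes in S13 (red circles) and S3 (blue squares), in the order of the plastid genome. The lines follow each other along the genome, with rpoB high and atpA and psbA low in both, and error bars that overlap for most genes. The gene models of petB and rpl16 cover a few bases only.

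Photosystem genes had mostly negative interactions, none of which passed. Of 15 genes, all named psa for photosystem I or psb for photosystem II, 6 rose and 2 fell in S13 (13% and 14.3% of all genes compared), and 11 rose and 1 fell in S3 (14.6% and 18.6%). Their median response was 1.25 in S13 and 2.15 in S3; 14 interactions were negative and 1 positive, against 12846 negative and 14773 positive over all genes, with a median of -0.55, and the smallest adjusted p was 0.617. psbC, which encodes a chlorophyll-binding antenna protein of photosystem II, had 11.7, 41.75 and 35.0 CPM in the S13 salt libraries and 22.2 and 13.1 CPM in the S13 control libraries, against 59.9, 36.9 and 62.5 CPM in S3 salt and 15.3 and 9.73 CPM in S3 control libraries. The S13 groups overlapped and the S3 groups did not. Its interaction was -1.34 ± 0.69 with a 95% interval of -2.86 to 0.18. The interactions of psbD, a reaction centre protein of photosystem II, and of psaB and psaC of photosystem I were -1.09, -0.90 and -1.02. All 4 rested in part on the first S13 control library: without it psbC was at -0.91, psbD at -0.43, psaB at -0.39 and psaC at 0.14.

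Plastid genes share transcripts and reads from 1 genome, so these genes are not separate observations. The 9 of 14 green-tissue markers that could be matched, all plastid photosystem genes, summed to 98.0, 220 and 193 CPM in S13 salt and 201 and 87.5 CPM in S13 control libraries, against 250, 200 and 324 CPM in S3 salt and 147 and 122 CPM in S3 control libraries. None of the 9 was at 0 in any library. The sum mixes directions: psbA and psaC had negative salt responses in both lines, and the other matched markers positive ones. psbA alone held 99.75 and 36.4 CPM in the S13 control libraries. The S13 groups overlapped in this sum and the S3 groups did not; the part of this in the result was not tested.

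The 4 subunits of the plastid RNA polymerase had interactions of 0.96 (rpoC1), 0.42 (rpoB), 0.41 (rpoC2) and -0.07 (rpoA), with a median of 0.42 and the smallest adjusted p at 0.693. When 1 library was left out, rpoC1 ran from 0.59 to 1.45, rpoB from 0.10 to 1.01 and rpoC2 from 0.02 to 1.04. rpoB averaged 24.2 ± 7.3 CPM in S13 salt and 0.657 ± 0.238 CPM in S13 control, against 18.7 ± 11.1 CPM in S3 salt and 0.680 ± 0.161 CPM in S3 control. It rose in both lines, by 5.19 in S13 and 4.77 in S3. The sign for rpoA turned to values of 0.04 to 0.15 in 4 of the fits without 1 library.

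Genes of both organelles with names that begin with atp, for ATP synthase, numbered 7, with a median interaction of 0.61. ATP synthase genes under other names are not among them. Of the 7, 6 were positive and 1, atpA, was negative, against 14773 positive and 12846 negative over all genes compared. atpA, a subunit of the catalytic head, fell in both lines, to 13.5 ± 5.8 CPM in S13 salt against 84.6 ± 40.2 CPM in S13 control, and to 17.6 ± 3.6 CPM in S3 salt against 53.5 ± 13.4 CPM in S3 control. atpI and atpF, parts of the membrane sector, rose in both lines, with interactions of 0.91 ± 0.65 and 1.27 ± 1.10. Without the first S3 control library the interaction of atpF was -0.56. The control libraries held 10 counts of atpF in S13 and 16 in S3. Among other plastid genes, ndhD of the NADH dehydrogenase-like complex had an interaction of -1.72 ± 0.80 and rps2, a ribosomal protein, one of 1.40 ± 0.86. Without 1 library, that of rps2 ran from 0.13 (first S3 control left out) to 2.05 (second S3 control left out), that of ndhD from -2.44 to -1.19, that of atpA from -1.47 to -0.46 and that of atpI from 0.64 to 1.42.

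Of 53 named mitochondrial genes, 31 were compared; 9 rose in S13 (13% of all genes compared) and 6 in S3 (14.6%), and none fell (14.3% and 18.6%). None passed the interaction test, and 2, orfB and atp9, had an unadjusted p under 0.05, against 8.7% of all genes. The median interaction was 0.13 and the median responses 1.49 in S13 and 1.14 in S3. atp9, which encodes the ring subunit of the mitochondrial ATP synthase, had 4.66, 4.16 and 5.20 CPM in S13 salt and 1.53 and 1.19 CPM in S13 control libraries, against 2.44, 3.11 and 4.78 CPM in S3 salt and 3.36 and 1.83 CPM in S3 control libraries. The S13 groups did not overlap and the S3 groups did, and the interaction was 1.37 ± 0.58 (adjusted p 0.554). orfB stood at 0.183 to 1.47 CPM over all libraries, with an interaction of 1.85 ± 0.78 (adjusted p 0.554). nad5 and rpl2-2, a respiratory complex I subunit and a ribosomal protein, were at -1.64 ± 1.03 and -1.09 ± 0.90. The S3 control libraries held 5 counts of nad5 and 7 of rpl2-2 in all, so both interactions rest on few reads. Without 1 library, atp9 ran from 0.87 to 1.74, orfB from 1.39 to 2.19, nad5 from -2.04 to -1.07 and rpl2-2 from -1.77 to -0.64.

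How many genes count as different between the lines depended on the tool. The 140 genes, of 27628 compared, that DESeq2 called included all 24 leading genes. A mean of 5 CPM in a group was reached by 110 of the 140, and by 18149 of all genes compared. The interactions of the 140 had a median size of 2.98, and their edgeR adjusted p ran from 0.124 to 0.484, with unadjusted p up to 0.00895. By response, 51 belonged to S3 alone (15.7% of all genes compared), 44 to S13 alone (11.9%) and 30 were opposite (0.775%). Another 8 were larger in S13 (12.4%), 5 in S3 (16.1%) and 2 were small in both (43.2%). The 140 were picked by the interaction, so these patterns are a description. Exon bases were shared with another gene by 51 of the 140, a share similar to the 32.3% of all genes compared.

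**Figure D5:**
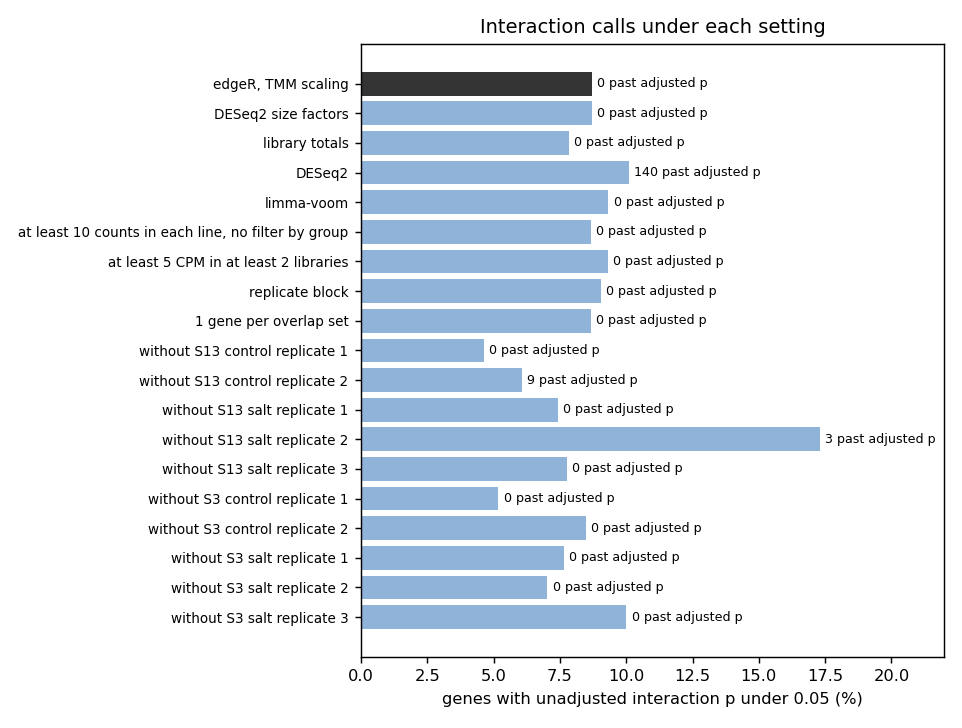
Percentage of genes with an unadjusted interaction p under 0.05 under each fit (bars), with the number past an adjusted p of 0.05 printed beside each; the dark bar is the fit reported here. The adjusted count is 140 with DESeq2, 9 without the second S13 control library, 3 without the second S13 salt library and 0 in the others, while the percentage is 8.7 in the fit reported and highest without the second S13 salt library.

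Single libraries weighed on the counts. Without the second S13 control library 9 genes passed, all with a positive interaction; beside Os06g0696500, the 8 others had at most 1.47 CPM in the first S13 control library and 5.44 to 46.3 CPM in the second. Without the second S13 salt library 3 genes passed, Os01g0571700 and the overlapping Os01g0327100 and Os01g0327250, and 4758 genes had an unadjusted p under 0.05. Os01g0327100 had 30.4, 98.0 and 26.6 CPM in the S13 salt libraries and 37.3 and 46.9 CPM in S13 control libraries, against 76.4, 83.9 and 99.6 CPM in S3 salt and 16.8 and 18.3 CPM in S3 control libraries. Across all 18 other fits the 24 leading genes kept the sign of their interaction in each fit that held them.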

How the data were processed

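The authors deposited raw read counts per gene for 38978 genes in each of 10 libraries, with each gene's exons and length, per the file headers. The build was IRGSP-1.0 and the tools were HISAT2, featureCounts, Trimmomatic, FastQC and DESeq2, per the submitters' processing notes, for which the sources used here give neither versions nor settings. Whether counting used strand is not stated either. In both overlapping pairs among the leading genes, the partners on opposite strands had nearly equal counts. The other leading genes that share exon bases were not compared with their partners. Overlapping genes and near-identical copies are uncertain. Groups came from the titles. Total counts per library ran from 22938524 to 25703942.

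In R 4.3.3, edgeR 4.0.16 was run on the counts: filterByExpr by group left 28189 genes and removed 10789, and TMM scaling was followed by a quasi-likelihood fit of 4 groups over all libraries without covariates. The biological coefficient of variation was 37.3%. p-values were adjusted by Benjamini-Hochberg over all 28189 genes, 561 of which lie outside the comparison, and an adjusted p under 0.05 was called. Standard errors are the size of an estimate over the square root of its test statistic, and 95% intervals follow from them. For estimates near 0 they can be too small. The mitochondrial ccmC had an interaction of -0.01 ± 0.45, against standard errors of 0.70 and 0.74 for its S13 and S3 responses. CPM are TMM-scaled. DESeq2 1.42.0 and limma 3.58.1 (voom), other scalings and filters, 1 gene per set of overlapping genes (joined from an overlap of 0.5 of the exon bases in the shorter of them), a replicate block and fits without each library were the alternatives. The scripts were tested on simulated data in which no gene responded to salt apart from those given an interaction. That setting differs from these libraries, and the share recovered is not given here. No replicate pair agreed within sampling noise (chi-square per degree of freedom 34.8 to 205).

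Named genes were the 12 of smallest interaction p in each direction with a mean of at least 5 CPM in the highest group, and up to 4 of each list that could be named. Lists of ion transport, water channel, abscisic acid and other nuclear genes could not be matched and were not used. The members and lists were chosen with earlier results of these data known.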

Additional observations from a re-analysis of the deposited data

How the results depend on the processing

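The interaction count was 0 in the fit reported and under DESeq2 size factors, library totals, limma-voom, both other filters and 1 gene per overlap set, where 1744 to 2577 genes had an unadjusted p under 0.05. DESeq2's own test gave 140 calls, 70 higher and 70 lower; the cause was not tested. Leaving out each library in turn gave 0 to 9 calls, 0 to 9 higher and 0 to 2 lower. Salt response calls, 7529 in S13 and 9161 in S3, ran from 1489 to 7660 in S13 and from 3204 to 7760 in S3 when 1 library was left out; S13 had 1489 and 2419 when its first or its second control library was left out, and S3 had 3204, 5217 and 5919 when its first control, second control or second salt library was. A group left with 1 library was assumed to vary like the others. With replicate number as a block the interaction count was 0, with 2499 genes at an unadjusted p under 0.05; same-numbered libraries of different groups had correlations of -0.193 to 0.292 in their deviations from group means, 1 of 13 pairs over 0.1, so the numbers were not taken to pair libraries. The median interaction was 0.006 to 0.084 over all fits. The 24 leading genes kept their sign in every alternative that held them; their adjusted p ran from 2.08e-12 with DESeq2 to 1 without a library. Over fits without 1 library, psaC ran from -1.652 to 0.142 (positive without S13 control 1), atpF from -0.564 to 2.025 (negative without S3 control 1) and rpoA from -0.26 to 0.149, with 0.147 and 0.149 without S13 control 1 and S3 salt 3, and 0.052 and 0.038 without S13 salt 1 and S3 control 1. With 2 control libraries per line, interactions of 4.17 (Os06g0696500) and -4.82 (Os01g0115600) did not pass the adjusted threshold in the fit reported. The absence of a call therefore does not show that the lines responded alike.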

Other observations

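A search of each line for genes at 0 counts in 1 library and at 5 CPM or more, by library totals, in the line's 4 other libraries found 5 genes at 4 loci for the first S13 control library, 3 genes for the third S13 salt library and 0 for each of the other 8. In the third S13 salt library these were Os03g0437200, Os03g0830400 and Os03g0830500. Os03g0830500 (chromosome 3, 34883520 to 34884578, minus strand) had 61.6, 67.5 and 0 CPM in the S13 salt libraries and 86.4 and 119.5 CPM in the S13 control libraries, against 7.34, 11.3 and 41.3 CPM in S3 salt and 0.173 and 0.698 CPM in S3 control libraries. Os03g0830400, on the same chromosome and strand (34878043 to 34878992), had 11.549, 8.09 and 0 CPM in S13 salt and 5.22 and 14.8 CPM in S13 control libraries, against 7.26, 7.86 and 35.8 CPM in S3 salt and 0.217 and 0.436 CPM in S3 control libraries. In the first S13 control library the genes were Os04g0405401, the overlapping Os05g0215066 and Os05g0215033, Os09g0309900 and Os09g0325300. Os04g0405401 (chromosome 4, 20117097 to 20119136, minus strand) had 16.1, 8.05 and 8.44 CPM in S13 salt and 0 and 29.5 CPM in S13 control libraries, and 0 in all S3 libraries, so it lies outside the comparison of responses. These genes were chosen after their values were seen.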
